A study of Mus musculus with 5 samples.

Results

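This account concerns the 860 EBF1 binding sites of mouse pro-B cells that carry the authors' class YmA-dep and lie outside the immunoglobulin kappa light chain locus (Igk). They were chosen on the class column of the authors' list of 7494 sites. Another 29 YmA-dep sites, between positions 67555636 and 70723923 of chromosome 6, were left out because they lie in the Igk array. The members made up 11.6% of the 7437 sites outside Igk (exact 95% binomial interval 10.8 to 12.3). The other sites there were 4031 in the class YmA-ind and 2546 in the class CTD-ind. The class column is named after a grouping in deepTools, a program that summarises sequencing signal over regions. The signal values behind it, and the way the classes were drawn, were not given in the sources used here. Class membership is therefore a description and not a result.

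The study asked whether phase separation matters for EBF1 as a pioneer factor. It used Ebf1-/- fetal liver cells that received either EBF1 wt or an EBF1 form named YmA, and the labels call the resulting cells pro-B cells. There were 5 libraries, each the only one of its group: EBF1 ChIP from EBF1 wt cells, EBF1 ChIP from YmA cells, BRG1 ChIP from YmA cells, and 1 input for each antibody, both from EBF1 wt cells. The series design also names a form dC. Only the EBF1 ChIP from EBF1 wt cells came with a site list, so all positions below come from that single library, the other 4 libraries were not analysed here, and no culture was replicated. All cells lacked their own Ebf1 and had only the EBF1 that was introduced. The list holds positions alone, each 300 bp wide, with no height, score or read count, so the depth behind a site is unknown. No marker of the cell type could be checked in a list of positions.

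EBF1 is a DNA-binding transcription factor that commits lymphoid progenitors to the B lineage. It is called a pioneer factor because it can bind sites in closed chromatin, after which those sites become accessible. BRG1 is the ATPase of the BAF complex, which moves nucleosomes with energy from ATP. EBF1 binds as a dimer to a palindromic motif that reads TCCC, then any 2 bases, then GGGA, which is the same on both strands.

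DNA sequence could be read only where a member overlapped a RefSeq promoter window, which runs from 250 bp before to 50 bp after a start in build GRCm38.p6. On the chromosomes that have such windows, 13 of 836 members touched one (1.56%), against 4.18% of the YmA-ind class and 16.5% of the CTD-ind class. A total of 11 members had at least 100 bp in windows, and 7 of these held the motif with at most 1 mismatch. The sequences of these 7, up to 60 bp to either side of the site centre where the window allowed, are shown because they let a reader see how the motif of each member departs from the full palindrome. All are the plus strand of the chromosome, 5′ to 3′, and capitals mark the motif match.
Sapcd2, chr2:25371850-25371969: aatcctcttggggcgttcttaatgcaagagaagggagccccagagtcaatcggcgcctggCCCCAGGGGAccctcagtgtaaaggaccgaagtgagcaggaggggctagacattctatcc
Smtnl2, chr11:72411794-72411913: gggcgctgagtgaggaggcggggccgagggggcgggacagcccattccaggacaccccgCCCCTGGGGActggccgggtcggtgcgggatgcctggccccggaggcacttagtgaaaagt
Gm10847, chr14:74921971-74922090: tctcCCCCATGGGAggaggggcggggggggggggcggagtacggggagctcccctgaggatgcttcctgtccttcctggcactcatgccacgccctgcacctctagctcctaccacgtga
Lipc, chr9:70934966-70935058: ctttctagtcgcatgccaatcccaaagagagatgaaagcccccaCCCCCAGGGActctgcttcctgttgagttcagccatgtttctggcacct
Fam78a, chr2:32064198-32064317: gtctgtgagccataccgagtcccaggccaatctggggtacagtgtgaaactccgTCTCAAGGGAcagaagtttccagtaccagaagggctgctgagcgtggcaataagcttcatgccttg
Niban3, chr8:71597529-71597648: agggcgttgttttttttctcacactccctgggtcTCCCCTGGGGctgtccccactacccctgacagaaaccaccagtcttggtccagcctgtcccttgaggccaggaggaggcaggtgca
Gm32633, chr7:64001884-64001953: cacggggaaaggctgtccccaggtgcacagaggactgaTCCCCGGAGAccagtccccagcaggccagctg

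Positions in the motif are counted from 1 at its 5′ end on the plus strand, with the motif base written first. The members at Sapcd2, Smtnl2, Gm10847 and Lipc all carried T1C, and the member at Niban3 carried A10G. These 5 of 7 departures were at an outermost base of the palindrome (71.4%, exact 95% interval 29.0 to 96.3). The member at Fam78a carried C3T and the one at Gm32633 carried G8A. Among sites of the other classes whose best match had 1 mismatch, the outer base was the one changed in 30 of 61 YmA-ind sites (49.2%) and 91 of 154 CTD-ind sites (59.1%). Both shares lie within the interval of the members. The match sat within 25 bp of the site centre in 6 of the 7 members, and at Gm10847 its offset from the centre was -51 bp, toward lower coordinates. Most matches in the other classes were as central, with 67.6% within 25 bp in YmA-ind and 77.0% in CTD-ind.

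None of the 11 members with sequence held the full motif, which allows a share of up to 28.5% (upper limit of the exact 95% interval). The members at Apbb1, Il5ra and Dpp7, all without a match, had only 131, 108 and 103 bp in windows. A motif in the rest of those sites would have gone unread. The full motif was in 10 of 128 YmA-ind sites (7.81%) and 55 of 338 CTD-ind sites (16.3%) read in the same way. Neither difference from the members passed a two-sided Fisher's exact test (adjusted p = 1 and 0.899 over 4 comparisons), so a difference in the full motif was not detectable with 11 members. With at most 1 mismatch the shares were 63.6% of members (exact interval 30.8 to 89.1), 55.5% in YmA-ind and 61.8% in CTD-ind. The difference from YmA-ind was 8.17 percentage points (95% interval -21.3 to 31.1) and that from CTD-ind was 1.8 points (-26.9 to 23.6). Of all 32851 promoter windows, 0.904% held the full motif and 16.5% held it with at most 1 mismatch. The GC content of the windowed bases had a median of 54.4% in members, 58.1% in YmA-ind and 64.1% in CTD-ind sites. For comparison, these CTD-ind sites at Foxo1, which encodes a transcription factor of B-cell precursors, and Cd22, which encodes an inhibitory co-receptor of B cells, held the full motif.
Foxo1, chr3:52268204-52268323: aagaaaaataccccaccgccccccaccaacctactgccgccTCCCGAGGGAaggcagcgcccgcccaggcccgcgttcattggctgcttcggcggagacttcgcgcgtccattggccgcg
Cd22, chr7:30879016-30879135: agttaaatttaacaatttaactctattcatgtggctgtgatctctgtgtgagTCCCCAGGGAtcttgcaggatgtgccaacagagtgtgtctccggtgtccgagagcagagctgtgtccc
A member without a match is shown beside them, at the start of the long non-coding RNA gene Gm35621.
Gm35621, chr6:8623223-8623342: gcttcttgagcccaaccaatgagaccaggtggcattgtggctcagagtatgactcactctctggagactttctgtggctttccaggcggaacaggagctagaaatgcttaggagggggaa

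Members were close to ends of protein-coding genes less often than sites of the other classes were. Near an end means a site centre at most 1 kb from an end, on either side, as given by the RefSeq annotation of GRCm38.p6. This held for 34 of 860 members (3.95%, exact interval 2.75 to 5.48), for 9.87% of YmA-ind sites and for 29.0% of CTD-ind sites. The members were lower by 5.92 percentage points than YmA-ind (-5.92, 95% Newcombe interval -7.39 to -4.16, exact test, adjusted p = 9.28e-09) and by 25.0 points than CTD-ind (-25.0, -27.1 to -22.7, adjusted p = 1.63e-64). For these and the following location comparisons the test was Fisher's exact test, two-sided, with Benjamini-Hochberg adjustment over 14 comparisons. The p-values compare the classes of this list and say nothing of the spread between cultures.

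The difference was also seen at starts alone. A start is a position that the RefSeq promoter table gives, and it can lie within the full extent of a gene. Sites on the chromosome without windows were left out, which removed 24 members. The table gave a strand for 17274 of 21521 protein-coding genes, so starts of other genes can be missing on the remaining chromosomes too. Shares near a start may then be too low, and distances to a start too long, in every class. Of the 836 others, 19 had their centre within 1 kb of a protein-coding start (2.27%, 1.37 to 3.53), against 7.27% in YmA-ind and 26.3% in CTD-ind. By the exact test the differences were -5.0 points (-6.18 to -3.53, adjusted p = 9.43e-09) and -24.0 points (-26.0 to -21.9, adjusted p = 6.99e-66). The median distance to a protein-coding start was 34.3 kb in members, 26.4 kb in YmA-ind and 12.4 kb in CTD-ind sites.

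Members were near an end of a non-coding gene in 52 cases (6.05%, 4.55 to 7.85), and YmA-ind sites in 5.95%. This difference did not pass the exact test (0.0927 points, -1.51 to 2.02, adjusted p = 0.967). Members were lower than CTD-ind sites, of which 9.43% were near such an end (-3.38 points, -5.23 to -1.29, exact test, adjusted p = 0.0038). With the Igk sites of all classes kept in, that last difference was -1.69 points and no longer passed the exact test (adjusted p = 0.21). Within 1 kb, more members were thus near a non-coding than near a protein-coding end, and 4 members were near both. This order depended on the distance used. Within 2.5 kb, 12.1% of members were near a non-coding end and 13.5% near a protein-coding end. The annotation also held more non-coding genes (27688) than protein-coding genes (21521). Over all annotated genes, 82 members were near an end (9.53%), against 15.0% in YmA-ind and 34.9% in CTD-ind. By the exact test these differences were -5.47 points (adjusted p = 3.43e-05) and -25.3 points (adjusted p = 3.65e-52).

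The share inside genes did not separate the classes. A gene of any kind held 570 members (66.3%), and the shares were 65.4% for YmA-ind and 66.2% for CTD-ind. Protein-coding genes held 485 members (56.4%), with 56.2% in YmA-ind and 57.7% in CTD-ind. The members differed from YmA-ind by 0.206 points (-3.46 to 3.83) and from CTD-ind by -1.34 points (-5.18 to 2.46), with adjusted p of 0.967 and 0.758 by the exact test.

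**Figure D1:**
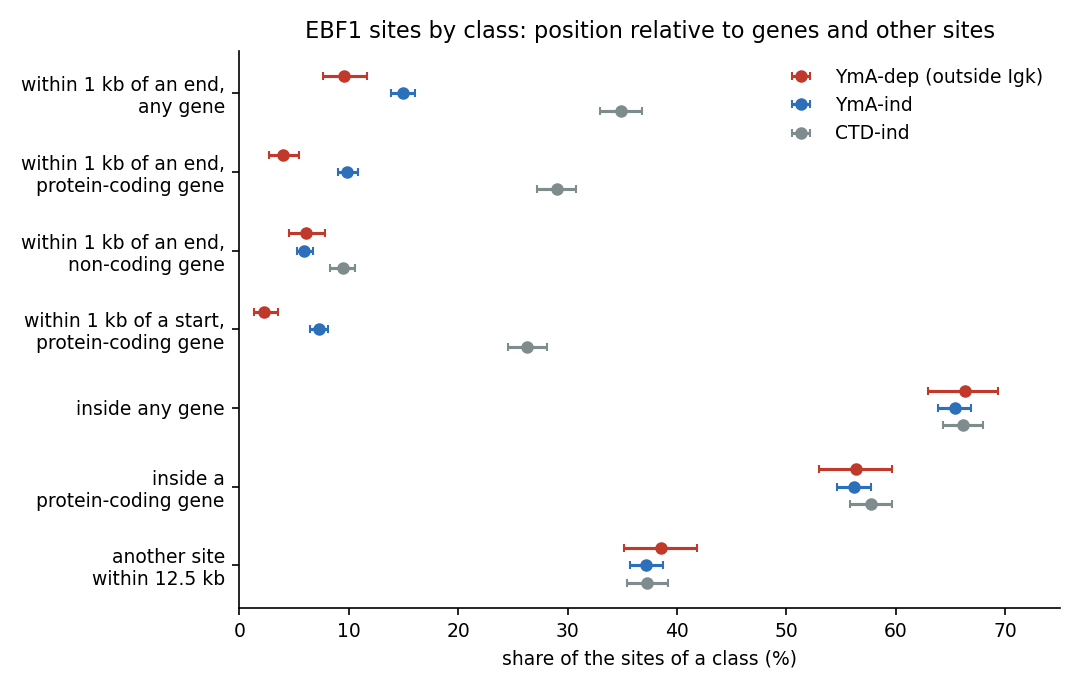
Share of the sites of each class, in percent, that lie near a gene end, near a protein-coding start, inside a gene or within about 12 kb of another site, with points for shares and bars for exact 95% binomial intervals. Members (YmA-dep) are at 3.95% near protein-coding ends and 2.27% near protein-coding starts, below both other classes, while all classes sit between 65.4% and 66.3% inside any gene.

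The full spread of distances showed the same order of classes. The median distance from a site centre to the nearest protein-coding end was 18.1 kb in members, 14.1 kb in YmA-ind and 5.52 kb in CTD-ind sites. The quartiles of the members were 6.28 and 54.2 kb. By distance, 146 members were 1 to 5 kb away (17.0%), 279 were 5 to 20 kb away (32.4%), 288 were 20 to 100 kb away (33.5%) and 113 were farther than 100 kb (13.1%). Of the YmA-ind sites 8.83% were farther than 100 kb, and of the CTD-ind sites 3.93%. The median distance to a non-coding end was 21.0 kb in members, 20.0 kb in YmA-ind and 17.1 kb in CTD-ind sites. These medians are given as a description.

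**Figure D2:**
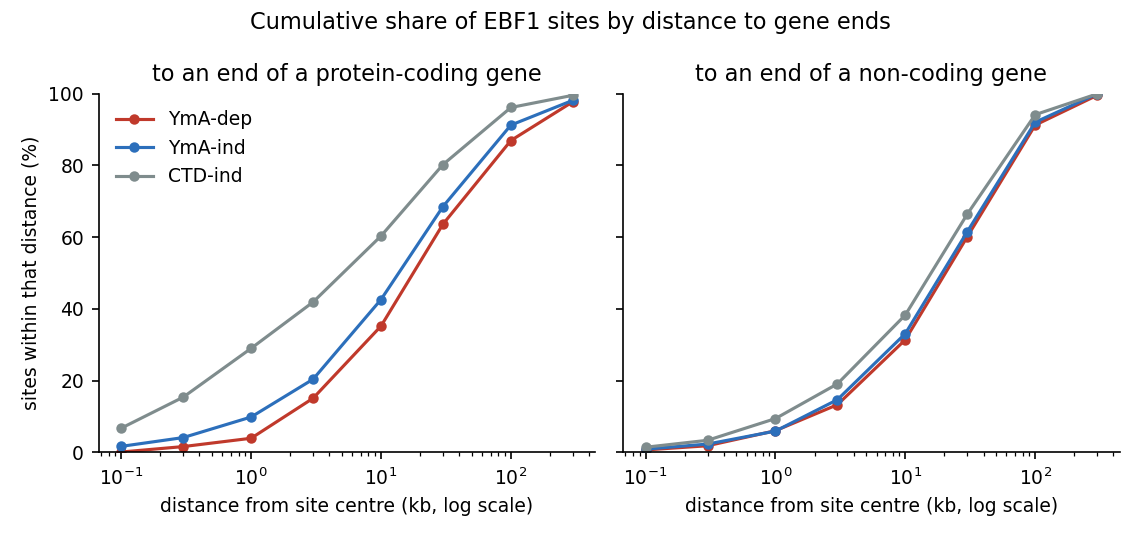
Cumulative share of sites, in percent, against the distance from the site centre to the nearest gene end in kb on a log scale, drawn by class for protein-coding and for non-coding genes. For protein-coding ends the medians are 18.1 kb in members, 14.1 kb in YmA-ind and 5.52 kb in CTD-ind sites, while for non-coding ends they are 21.0, 20.0 and 17.1 kb.

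Members inside protein-coding genes lay in long genes. The median length of the gene holding a member was 84.1 kb, against 68.5 kb for YmA-ind and 49.2 kb for CTD-ind sites. Where the strand of the gene was known, 45 of 381 members lay in the first 10% of the gene (11.8%, exact interval 8.75 to 15.5). The same share was 14.7% in YmA-ind and 37.0% in CTD-ind sites. In the last 10% it was 8.92% in members, 8.48% in YmA-ind and 8.08% in CTD-ind. Exons and introns were not separated here.

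Of the 34 members near a protein-coding end, 14 had a start as the nearest end, 12 had the far end, and 8 lay at genes whose strand was not given. A total of 20 lay inside the gene and 14 outside. The closest was 54 bp beyond an end of Cxcr5, the chemokine receptor that guides B cells into follicles (chr9:44526349-44526648). The members shown above at Sapcd2 and Smtnl2 lay 126 and 140 bp from a start. Other starts with a member included Zc3hav1, which encodes an antiviral RNA-binding protein, at 167 bp, and Kcnmb1, a subunit of calcium-activated potassium channels, at 260 bp. Il5ra, the alpha chain of the interleukin-5 receptor, had a member 292 bp outside its start (chr6:106749180-106749479). That member had no site of another class within 1403 kb. Starts of Dpp7, a peptidase gene, Hyls1, Meltf and Glra3, a glycine receptor subunit, had members at 240, 338, 368 and 384 bp. Those of Sh3tc1, Tmod1, which encodes a protein that caps actin filaments, Vat1, Nr4a3, an orphan nuclear receptor gene, and Trim24 had members at 688, 716, 861, 926 and 940 bp.

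Members at far ends included those of Ccdc97 at 131 bp, Tmem131 at 172 bp, Zdhhc8 at 247 bp, Tbc1d2b at 294 bp and Mrpl11, a protein of the mitochondrial ribosome, at 305 bp. The ends of Lsm1 and Idh3a had members at 166 and 179 bp, at genes of unknown strand here. Lsm1 takes part in mRNA decay and Idh3a is a subunit of a mitochondrial isocitrate dehydrogenase. Lyn, the Src-family kinase that phosphorylates the B-cell receptor, held a member 798 bp from an end (chr4:3678717-3679016). Zc3hav1 and Exoc7 had a site of another class within 0.882 and 2.23 kb of the member, whereas at Ddr2, a collagen receptor gene, the nearest was 442 kb away.

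Among the 52 members near a non-coding end, the nearest such gene was a long non-coding RNA in 36, a pseudogene in 8, a microRNA in 3, a small nucleolar RNA in 3 and a small nuclear RNA in 1. The remaining member was next to the annotated Igk locus itself. Near a long non-coding RNA end lay 4.19% of members, 4.49% in YmA-ind and 7.62% in CTD-ind. The closest was 22 bp inside the far end of Gm36738 (chr15:78574284-78574583). That site was assigned to Rac2, a small GTPase gene of blood cells, 1.65 kb away. Others were 25 bp outside the start of Gm35621, 38 bp from an end of the pseudogene Gm23675 beside Frem2, and 95 bp outside the start of Gm10847, the first and last of which are among the sequences above. Ends of Gm46922, 1500009C09Rik, Gm46732, the small nucleolar RNA Gm22192 and the pseudogene Gm26226 had members at 122, 127, 158, 168 and 172 bp.

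The microRNA genes near members were Mir139 at 40 bp, Mir6367 at 147 bp and Mir7662 at 928 bp. The site at Mir139 (chr7:101475187-101475486) held the whole microRNA gene, chr7:101475376-101475443, which lies inside Pde2a. The 2 arms of Mir139 from RefSeq are shown because this is the only microRNA that a member covered in full, with the seed, bases 2 to 8, in capitals.
mmu-miR-139-5p: uCUACAGUgcacgugucuccag
mmu-miR-139-3p: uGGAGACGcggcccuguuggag

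A member went to the protein-coding gene that held its centre, to the shortest where several did, and otherwise to the nearest gene up to 100 kb away. This gave 795 members a gene (92.4%), of which 485 were inside it and 310 outside. The other 65 had no protein-coding gene within 100 kb (7.56%). The assigned genes numbered 702, or 3.26% of 21521 protein-coding genes, and this share is the background for the gene lists that follow. Any EBF1 site was assigned to 4213 genes, and 16.7% of these had a member. Of the 702 genes, 625 had 1 member, 63 had 2, 12 had 3 and 2 had 4. No site of another class was assigned to 300 of them (42.7%, 39.0 to 46.5). The same share was 65.9% of the genes with a YmA-ind site and 59.5% of those with a CTD-ind site, in classes of different size. A total of 307 also had a YmA-ind site, 225 also had a CTD-ind site, and 130 had both.

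Gene lists by role in the B lineage and in other lineages were then read against those shares. Across 4 lists of B-lineage genes, 16 of 84 had a member (19.0%), and across 7 other lists 11 of 128 did (8.59%). Among only the genes with any EBF1 site, the shares were 24.2% and 24.4%, beside 16.7% over all protein-coding genes with a site. Listed genes were also longer, with a median of 30.8 kb in the B-lineage lists, 24.7 kb in the other lists and 17.4 kb over all protein-coding genes. The part of gene length in these shares was not tested.

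In signalling from the pre-B and B-cell receptor, 5 of 22 genes had a member. Cd72, an inhibitory co-receptor gene, had 1 member 2.17 kb outside its start and no other EBF1 site (chr4:43457119-43457418). Blnk, the adaptor downstream of the kinase Syk, had its member 13.3 kb outside the start, beside 3 YmA-ind sites. Bank1, a scaffold of B-cell signalling, held a member 17.4 kb from its start, and Prkcb, a protein kinase C gene, held one 1.88 kb from its start. Lyn, described above, was the remaining gene of the list.

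Transcription factors of the B lineage had a member at 5 of 24 genes. Tcf3, which encodes the E2A proteins that act together with EBF1, held a member 7.73 kb from its start. Ets1 had 2, of which 1 lay 18.7 kb outside and the other 16.1 kb inside the gene. Erg, another ETS-family gene, held 2, which were 7.95 kb from its start and 101 kb from its far end. Sox4 had a member 36.7 kb outside its start. Bach2, a repressor gene active in B cells, held a member 106 kb from its far end, and the nearest site of another class was 241 kb away. Ebf1 itself had no member among the 7 EBF1 sites within 100 kb. Members are 11.6% of all sites outside Igk, so 7 sites are too few to show a lack of them. The member nearest to Ebf1 was 278 kb away (chr11:44340257-44340556) and was assigned to Il12b.

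The list of IL-7, PI3K and survival genes had a member at 3 of 19, all with sites of another class as well. Stat5b, which transmits the IL-7 signal, held a member 9.07 kb from its far end. Bcl2l1, which encodes a survival protein of the Bcl-2 family, held one 20.3 kb from its start. Pik3r1, the regulatory subunit of PI3K, had one 56.4 kb beyond its far end. Of 19 recombination and B-cell surface genes, 3 had a member and in each it lay outside the gene. These were Cxcr5, described above, Ccr7, a chemokine receptor gene with 2 members at 16.0 and 22.5 kb, and Spn, which encodes the surface protein CD43, with 1 member 1.06 kb outside its start.

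Genes of other lineages also had members. Of 24 genes of T, NK and innate lymphoid cells, 3 had a member. Among them, Notch1, the receptor that directs T-cell fate, held 1 at 20.1 kb from its start, and Lat, a T-cell adaptor gene, had 1 at 22.6 kb beyond its far end. Of 16 myeloid genes, Cebpb, a transcription factor gene, had a member 61.2 kb away and Itgam, the integrin chain CD11b, had one 18.3 kb away. Gfi1b, a repressor gene of red cell and platelet precursors, was the only 1 of 15 in its list. Cell adhesion and cytoskeleton genes had a member in 4 of 20, namely Rac2, the exchange factor genes Vav2 and Arhgef3, both with the member inside, and Dock10. The neuronal list had a member at 1 of 18. None of 20 BAF complex genes and none of 15 housekeeping genes had a member, and 7 and 4 of them had some EBF1 site. The background was 3.26% of all protein-coding genes and 16.7% of those with any site. Lists of this size can hold no member at such shares, so no depletion can be read from them.

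The 14 genes with 3 or more members differed in what else they held. Prdm1 and Tmem132e had 4. Prdm1 encodes Blimp-1, the repressor that drives plasma cell differentiation, and had no site of another class. Its 4 members all lay outside the gene on the side of its start, at 9.51, 76.8, 78.4 and 87.2 kb. A further member lay 108 kb from the start, past the 100 kb limit (chr10:44636135-44636434). The sites of other classes nearest to these 5 were 465 to 563 kb away. With a limit of 20 kb Prdm1 had 1 member, Tmem132e had 2 and Nuak1 had 1. Counting only members inside the gene, Clint1, Frem2 and Tspan15 had 2 each, Tmem132e and Nuak1 had 1 each, and Prdm1 had 0. Clint1, a clathrin adaptor gene, Tspan15, a tetraspanin gene, and Wdfy3, which encodes a scaffold of selective autophagy, had 3 members each and no other class. Pde4c, a cAMP phosphodiesterase gene, had 3 members and 1 CTD-ind site.

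The other 9 genes also had YmA-ind sites, and 4 of them also had CTD-ind sites. Cyth1, an exchange factor gene for ARF GTPases, had 3 members beside 6 YmA-ind and 3 CTD-ind sites, all 3 members inside the gene. Med13l, of the Mediator kinase module, had 3 beside 5 and 4, and Msi2, an RNA-binding protein gene of stem cells, had 3 beside 7 and none. Gse1 had 3 beside 4 and 2, and Tns3, a focal adhesion gene, 3 beside 3 and 2. Nuak1, a kinase gene, and Srgap3, a GTPase-activating protein gene, each had 3 beside 2 YmA-ind sites. Frem2, an extracellular matrix gene, had 3 beside 1. Tmem132e had 2 YmA-ind sites beside its 4 members, which were 29.0 kb before the start, 21.8 kb inside, and 2.2 and 92.7 kb beyond the far end.

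**Figure D3:**
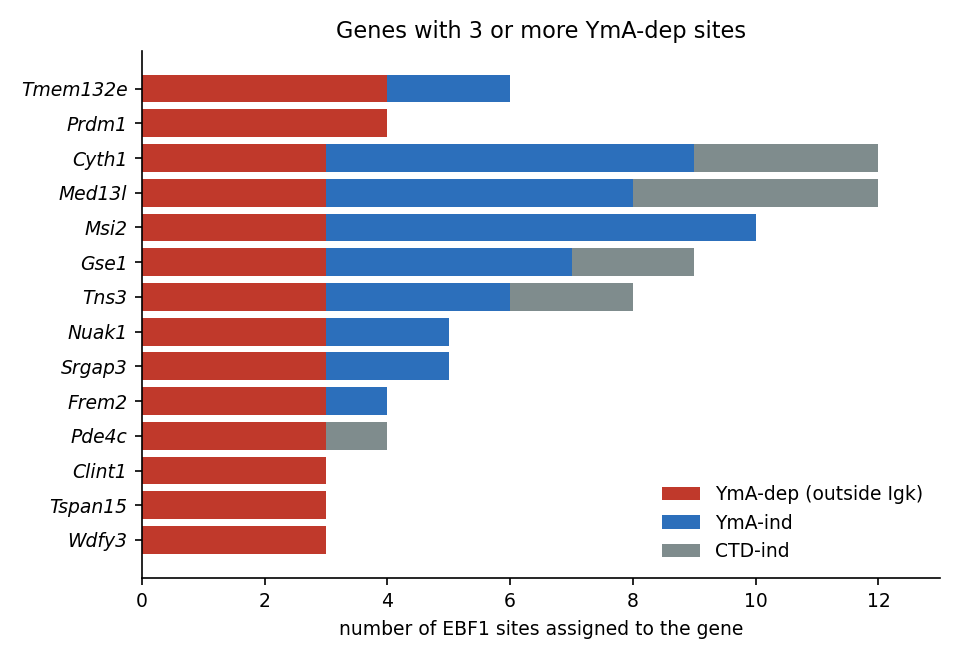
Number of EBF1 sites assigned to each of the 14 protein-coding genes with 3 or more members, split by class. Prdm1, Clint1, Tspan15 and Wdfy3 show members alone, while Cyth1 and Med13l reach 12 sites of all classes.

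Most members had no neighbour of any kind close by. Another EBF1 site lay within about 12 kb of 331 members (38.5%), against 37.2% in YmA-ind and 37.3% in CTD-ind. These differences of 1.3 points (-2.23 to 4.91) and 1.17 points (-2.54 to 4.96) did not pass Fisher's exact test (adjusted p = 0.758 for both). The median gap from a member to the next site of any class was 21.8 kb, and 188 members had no other site within 100 kb (21.9%, exact interval 19.1 to 24.8). A gap is measured between site centres.

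What the near neighbours were is given next, as a description. Within 5 kb, 41 members had another member (4.77%, 3.44 to 6.41), while 2.75% in YmA-ind and 2.44% in CTD-ind had a member that near. These 41 members form 20 runs and are each other's neighbours. They are thus not independent, and the intervals on member neighbours given here may be too narrow. Within about 12 kb these shares were 8.14%, 5.36% and 5.58%. The neighbours within 5 kb were members alone for 41 sites and other classes alone for 145, and no member had both. Within about 12 kb, 55 had members alone, 261 had other classes alone and 15 had both. The nearest site of any class was another member for 146 (17.0%, 14.5 to 19.7), where members are 11.6% of the other sites. The other classes were also somewhat above such a share for their own class. It was 55.7% in YmA-ind, beside 54.2% of the other sites, and 36.9% in CTD-ind, beside 34.2%. For members the nearest site was a CTD-ind site in 265 cases (30.8%, 27.7 to 34.0), where that class is 34.2% of the other sites. The median gap was 375 kb to the next member, 63.9 kb to a YmA-ind and 136 kb to a CTD-ind site, in classes of very different size.

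**Figure D4:**
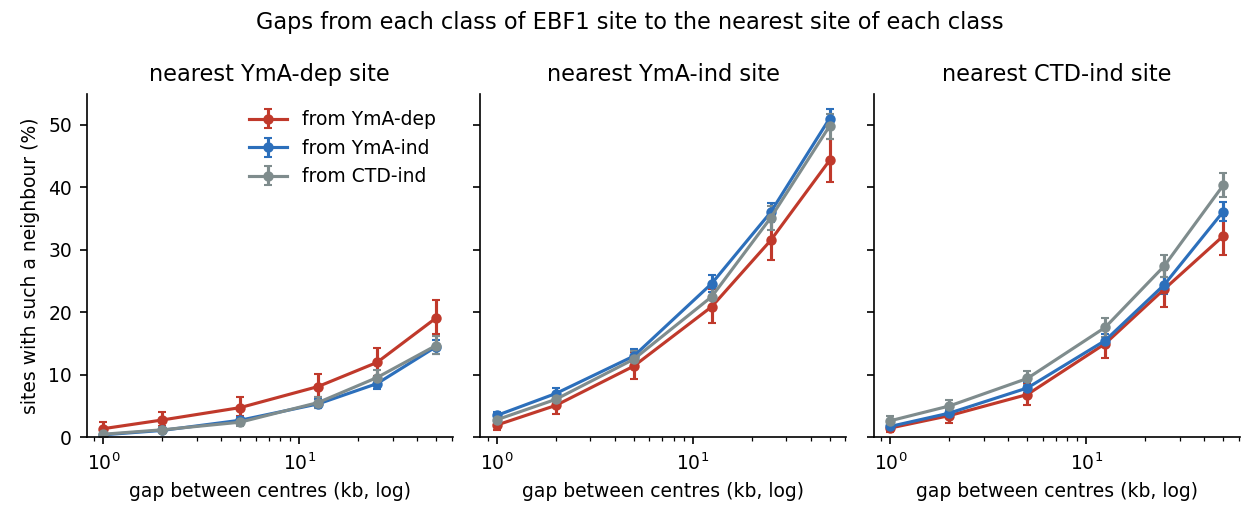
Share of the sites of each class, in percent, that have a site of the class named above the panel within a given gap, in kb between centres on a log scale. Within 5 kb, a YmA-dep neighbour is present for 4.77% of members, 2.75% in YmA-ind and 2.44% in CTD-ind.

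The members closest to another class lay at Ctif, 361 bp from a YmA-ind site, and at Ntng2, 446 bp from a CTD-ind site. Map3k4, Insyn2b and Vps26c followed, at 490, 522 and 574 bp from a YmA-ind site. At the other extreme, the member at Dio2, which encodes the enzyme that activates thyroid hormone, was 3787 kb from any other class. Members in Fam13a and Herc3, 97.0 kb from each other, were 3711 and 3614 kb away. A member on chromosome X (130751506 to 130751805) and 1 on chromosome 4 (18254620 to 18254919), neither with a gene within 100 kb, were 3308 and 3002 kb away. No site of another class lay within 500 kb of 51 members (5.93%) and within 1000 kb of 24 (2.79%).

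Runs of members, defined by gaps under about 12 kb, numbered 33 and held 70 members (8.14%). Of these runs 4 had 3 members and the rest had 2, with a median span of 4.24 kb. No site of another class lay between the members in 31. The exceptions were at Grhpr, with 2 YmA-ind sites between, and Irgc1, with 1 CTD-ind site. In 21 runs all members were inside protein-coding genes and in 8 all were outside. With gaps under 5 kb there were 20 runs, and with gaps under 25 kb there were 47, with up to 4 members.

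The shortest run of 3 lay between Cenpm, a centromere protein gene, and Septin3, over 7.71 kb (chr15:82253013-82261023). Its first 2 members lay inside the long non-coding RNA gene 1500009C09Rik and the last lay 127 bp past the far end of that gene. The run at Prdm1 covered 10.4 kb (chr10:44605240-44615947). The one inside Srgap3 covered 10.7 kb (chr6:112906000-112916982) and had its nearest other class 44.6 kb away. The run inside Pde4c covered 17.9 kb (chr8:70732440-70750656), with a CTD-ind site 1.96 kb from its last member. Among the pairs, the members at Sytl3 overlapped, with centres 13 bp apart (chr17:6663056-6663368). Pairs at Upp2, Tspan15, Dtx2, which encodes a ubiquitin ligase of the Notch pathway, Steap3 and Atp13a3 spanned 0.387, 0.423, 0.724, 0.847 and 0.858 kb. Pairs inside Shank2, a synaptic scaffold gene, and P2rx3, an ATP-gated channel gene, spanned 1.11 and 1.32 kb.

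**Figure D5:**
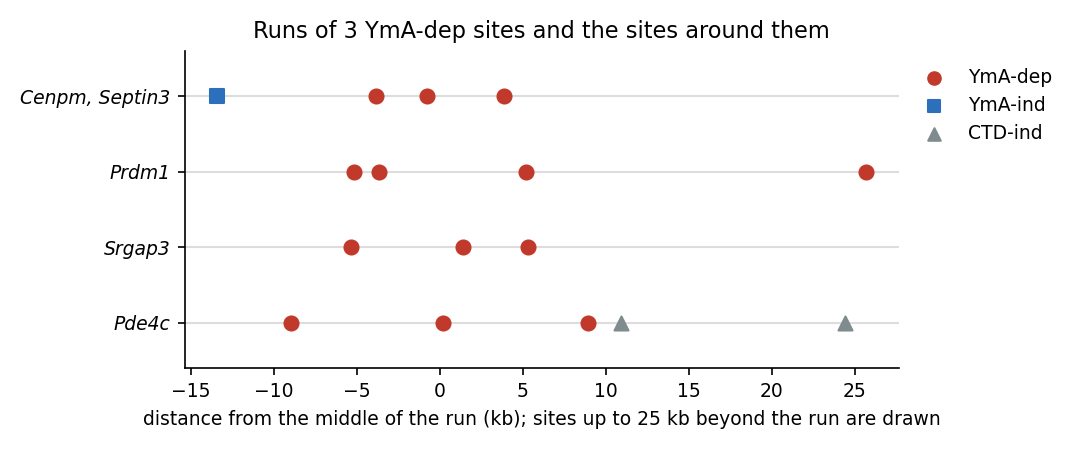
The 4 runs of 3 members, with each site drawn by class at its distance in kb from the middle of the run and sites up to 25 kb beyond the run included. No other class is drawn around the runs at Prdm1 and Srgap3, and CTD-ind sites follow the run at Pde4c.

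Across chromosomes the share of members among sites ranged from 8.01% on chromosome 12 to 16.8% on chromosome 9 (exact interval 13.2 to 20.8), and was 16.1% on chromosome 10. The intervals of 18 of 20 chromosomes held the 11.6% of all. At the Igk bounds, 1 member (67555395 to 67555694 on chromosome 6) overlapped the lower bound and had its centre 92 bp outside. The first YmA-dep site left out lay 54.0 kb inside that bound and the last lay 265 kb inside the upper one. The next members outward were 8556 kb below and 18007 kb above the array.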

How the data were processed

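The deposited list of the EBF1 ChIP from EBF1 wt cells holds site positions and a text class. The authors made it with Bowtie2, SAMtools and deepTools on GRCm38 (mm10), per the submitters' processing notes. How peaks were called, and at which threshold, was not given in the sources used here. Genes came from RefSeq GRCm38.p6 on the autosomes and chromosome X (49209 genes, 21521 of them protein-coding), after 345 scaffold genes were left out. The strand was known for 17274 protein-coding genes. Sites were compared by their centres with SciPy 1.17.1, pandas 2.3.3 and Python 3.11.15. Shares of sites were compared between classes with two-sided Fisher's exact tests at an adjusted p threshold of 0.05, and the procedure was tested on simulated data. Intervals cover counting error only. No genome was used here, so the planned motif test over whole sites was replaced by 1 in promoter windows.

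Members, the 11 gene lists (212 genes) and tests were chosen with earlier results of these data known. Named were genes with 3 or more members and the 12 runs with the most members. Listed genes with a member were named too, as were up to 30 protein-coding and 12 non-coding genes with a member within 1 kb. So were the 5 members nearest to and farthest from another class, and the YmA-dep sites at the Igk bounds. Vat1, Nr4a3, Trim24, Mir7662, Grhpr, Irgc1 and the genes of the printed sequences fall partly outside that rule and were chosen after their values were seen. Some genes that the rule names are not reported here. Alternatives changed the distances, the gene assignment, the Igk exclusion, the chromosomes and the counting of runs.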

Additional observations from a re-analysis of the deposited data

How the results depend on the processing

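Of 103 values from alternative settings over 33 results, 85 kept their direction and their side of the threshold or moved little. The lower shares of members near protein-coding ends passed the test under every alternative run. Those near protein-coding starts passed at 0.5 and 2.5 kb, and only the distance was varied for starts. Against CTD-ind, the difference near non-coding ends was -1.69 points with Igk kept (exact test, adjusted p = 0.21). Differences that never passed the test changed sign in 7 cases. Near non-coding ends against YmA-ind these were -0.623 points (0.5 kb), -0.385 (2.5 kb) and -0.217 (1 site per run). Inside protein-coding genes against YmA-ind it was -1.3 (Igk kept). Inside any gene with 1 site per run it was -0.119 against YmA-ind and -2.06 against CTD-ind. For another site within 5 kb it was -0.0532 against CTD-ind. The setting with 1 site per run used runs of sites of any class, not of members alone, and left 676 members. Counting only members inside genes gave 433 genes, 44 with 2 or more and 8 with 3 or more, because members outside genes then count for none. A gap under 5 kb gave 20 runs. Among the lists, members inside the gene were in 3 receptor signalling, 0 surface, 0 myeloid, 0 erythroid and 2 adhesion genes, and a limit of 20 kb left 1 myeloid gene. For the sign changes and the Igk case the cause was not tested. The motif in the central 100 bp, an alternative chosen after seeing the data, changed no call. No paired analysis was possible because each group has 1 library and only 1 has a list. With no read counts, the strength and depth of a site are unknown.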
